A study of Mus musculus with 2 samples.

Results

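The Mir183, Mir96 and Mir182 cluster is a set of 3 microRNA genes that lie within 3820 bases of each other on mouse chromosome 6. Its members were the rows of the count tables whose Ensembl identifiers carry the symbols Mir182, Mir183 or Mir96, and all 3 of the 3 were found among 1973 microRNA genes. Both libraries came from small RNA sequencing of limb tissue of mouse embryos, strain B6NCrl, at 14.5 days. They form 1 group of 2 biological replicates, each of 4 limbs, with inserts under 30 nucleotides. No treatment, mutation or transgene is named in the labels, so the design holds no contrast between conditions. Sex is given as pooled and the donor label is the same for both samples. The separation of the replicates rests on their replicate numbers and their collection days, and the spread between them may be partly technical.

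A microRNA is cut from a hairpin in its precursor, and either arm of the hairpin can yield a mature strand. The mature strand guides repression of mRNAs that pair with its seed, bases 2 to 8 counted from its 5′ end. The genes of this cluster are known to be made together from 1 primary transcript in sensory cells: photoreceptors of the retina, hair cells of the inner ear, olfactory cells and sensory neurons of the dorsal root ganglia. Changes in the seed of miR-96 cause progressive hearing loss in humans and mice. The limb holds the peripheral ends of sensory neurons but not their cell bodies, which lie in the ganglia, and it also holds skin, cartilage, muscle, vessels and blood.

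The 5p arms, read from RefSeq on GRCm38.p6, are shown because their seeds set which mRNAs each microRNA can pair with and because the members differ there by single bases. Capitals mark the seed, and the lines follow the order of the genes along the minus strand.
miR-183-5p: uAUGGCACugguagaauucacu
miR-96-5p: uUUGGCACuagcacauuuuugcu
miR-182-5p: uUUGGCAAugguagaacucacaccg
Counted from base 1 at the 5′ end, the seeds of miR-182-5p and miR-96-5p differ only by A8C, those of miR-183-5p and miR-96-5p only by A2U, and those of miR-182-5p and miR-183-5p by U2A and A8C. The matching site in an mRNA reads UUGCCAA for miR-182-5p, GUGCCAA for miR-96-5p and GUGCCAU for miR-183-5p. After the seed the likeness runs the other way. From base 9 on, miR-182-5p and miR-183-5p have 12 of 14 aligned bases in common, while miR-182-5p and miR-96-5p have 5 of 15 and miR-183-5p and miR-96-5p have 6 of 14. Over the whole strand, seed included, 81.8%, 52.2% and 59.1% of the aligned bases of these pairs are identical. The tables count reads per gene and do not split the arms, so the share of 5p and 3p reads was not measured.

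The annotated hairpin sequences are shown because they place these related arms, with the 5p and 3p mature strands in capitals. Their lengths include annotated bases outside the arms, which are most numerous in Mir96, and are not measured lengths of the precursors.
Mir183 hairpin: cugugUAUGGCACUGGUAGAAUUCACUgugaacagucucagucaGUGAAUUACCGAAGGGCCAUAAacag
Mir96 hairpin: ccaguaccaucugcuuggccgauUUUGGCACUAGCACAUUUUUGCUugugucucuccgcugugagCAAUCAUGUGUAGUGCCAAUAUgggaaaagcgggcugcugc
Mir182 hairpin: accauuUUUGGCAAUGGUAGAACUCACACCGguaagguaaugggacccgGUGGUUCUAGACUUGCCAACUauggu
Mir183 (ENSMUSG00000065619.2) lies at chr6:30169668-30169737 on the minus strand of GRCm38 and is 70 bases long. Mir96 (ENSMUSG00000065586.1) follows at chr6:30169446-30169551 with 106 bases, and Mir182 (ENSMUSG00000076361.1) at chr6:30165918-30165992 with 75 bases. Mir96 begins 116 bases after Mir183, and 3453 bases separate it from Mir182. No other annotated gene overlaps the span. The nearest annotated genes are Rncr4, a long noncoding RNA gene that starts 3155 bases away on the plus strand, and Nrf1, a coding gene on the plus strand 12459 bases beyond Mir182. The nearest counted microRNA genes were far off: Gm23049, 177428 bases away, had no read in either library, and Mir335, an imprinted gene 571561 bases away, averaged 76729 ± 4126 CPM (SD, n = 2). None of the 3 precursors had a stretch of 22 nucleotides in common with another microRNA gene of the tables.

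All 3 genes were well covered in both limb libraries. Levels are given in CPM, the reads on a gene's own strand per 1000000 such reads at all microRNA genes of the library, of which there were 4608816 in replicate 1 and 4144385 in replicate 2. Intervals in brackets are exact Poisson intervals at 95% and cover counting error only, since reads carried no molecular identifiers. In whole tissue, fewer cells that make a microRNA and less RNA in each cell cannot be told apart.

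Mir182, whose mature strand is known to repress Foxo1, was the most abundant member. It had 21997 reads in replicate 1 and 20038 in replicate 2, or 4773 CPM (4710 to 4836) and 4835 CPM (4768 to 4902), a mean of 4804 ± 44.0 CPM (SD, n = 2). It ranked 43 in both libraries among all genes of the tables and took 0.480% of the microRNA counts. Mir183 had 8238 and 7654 reads in replicates 1 and 2, or 1787 CPM (1749 to 1826) and 1847 CPM (1806 to 1889), with a mean of 1817 ± 42.0 CPM and rank 77. Mir96, the gene known for inherited deafness, had 4144 and 3689 reads, or 899 CPM (872 to 927) and 890 CPM (862 to 919), with a mean of 895 ± 6.38 CPM and rank 103. Every Mir182 value lay above both Mir183 values, and every Mir183 value above both Mir96 values, so the order was the same in both libraries and the members did not overlap. It does not follow the order of the genes along the strand, where Mir183 is first and Mir182 last.

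**Figure D1:**
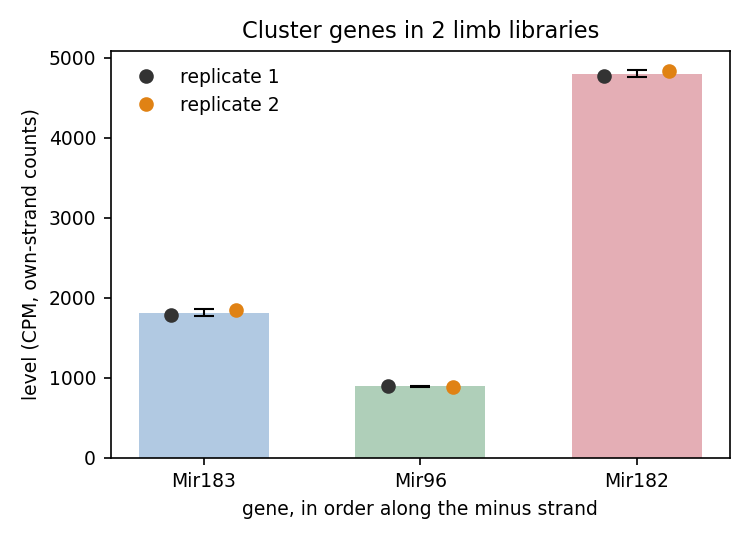
Level of each cluster gene in CPM (vertical axis, from 0) in order along the minus strand, with points for replicates 1 and 2, bars at the mean and whiskers of 1 SD (n = 2). The points of a gene lie close together at about 4804, 1817 and 895 CPM for Mir182, Mir183 and Mir96, and no gene overlaps another.

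The opposite strand was nearly empty at all 3 genes. It held 3 reads in replicate 1 and 1 in replicate 2 at Mir182, none and 2 at Mir183, and none in either library at Mir96. A count of 0 was taken to allow up to 3 reads, or 0.651 CPM in replicate 1 and 0.724 CPM in replicate 2. This is a rounded one-sided limit at 95%, while the Poisson intervals in brackets are two-sided.

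Of 687 genes with any read in the tables, 42 had a higher mean than Mir182, 76 a higher mean than Mir183 and 102 a higher mean than Mir96. Genes of 1000 CPM or more numbered 98, and Mir182 and Mir183 were among them. By distance in log2(CPM + 1) over the 2 libraries, the genes nearest to Mir182 were Mir130b (4753 ± 81.9 CPM; SD, n = 2), Mir30a (4797 ± 159 CPM) and Mir18 (4917 ± 132 CPM). Mir183 was nearest to Mir484 (1859 ± 45.7 CPM), Mir425 (1767 ± 11.6 CPM) and Mir101b (1728 ± 5.87 CPM). Mir96 was nearest to Mir615 (898 ± 0.974 CPM), Mir674 (881 ± 42.4 CPM) and Mir25 (951 ± 8.20 CPM). With 2 points per gene this likeness says only that levels were close. The order of Mir182 against Mir30a was not the same in both libraries, since Mir182 had 4773 CPM against 4685 CPM in replicate 1, and 4835 CPM against 4910 CPM in replicate 2. The order of Mir96 against Mir674 also changed, since Mir96 had 899 CPM against 851 CPM in replicate 1, and 890 CPM against 911 CPM in replicate 2.

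**Figure D2:**
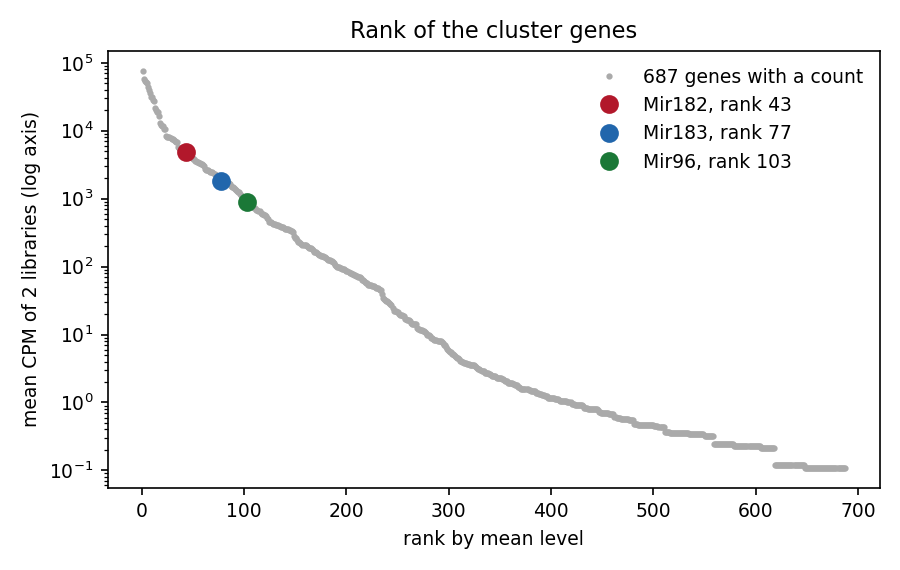
Mean CPM of the 2 libraries (log axis) against rank for the 687 genes with a read in either library, with the cluster genes in colour. Mir182, Mir183 and Mir96 lie at ranks 43, 77 and 103, in the upper part of the curve.

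Added up, the cluster had 34379 reads in replicate 1 and 31381 in replicate 2, or 7459 and 7572 CPM. Its mean was 7516 ± 79.6 CPM (SD, n = 2), which is 0.746% and 0.757% of the microRNA counts of the libraries. Its makeup was close to constant. Mir182 gave 64.0% of the cluster reads in replicate 1 (exact binomial interval 63.5 to 64.5) and 63.9% in replicate 2 (63.3 to 64.4). Mir183 gave 24.0% (23.5 to 24.4) and 24.4% (23.9 to 24.9), and Mir96 gave 12.1% (11.7 to 12.4) and 11.8% (11.4 to 12.1). For each gene the intervals of the libraries overlapped.

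A mature microRNA is read whole, so reads of the members were compared per molecule read and not per base. How evenly different microRNAs enter a library was not measured, so the ratios are of reads. Mir182 had 2.67 times the reads of Mir183 in replicate 1 and 2.62 times in replicate 2, a mean ratio of 2.64 ± 0.0369 (SD, n = 2). Against Mir96 its ratio was 5.31 and 5.43, a mean of 5.37 ± 0.0874, and Mir183 had 1.99 and 2.07 times the reads of Mir96, a mean of 2.03 ± 0.0614. All ratios lay above 1 in both libraries by far more than their spread. Divided by the length of the annotated gene, the mean ratios were 2.47, 7.59 and 3.08, in the same direction.

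Grouped by seed, Mir182 and Mir96 share bases 2 to 7 (UUGGCA). Together these genes reached 5672 CPM in replicate 1 and 5725 CPM in replicate 2, a mean of 5699 ± 37.6 CPM or 76.0% and 75.6% of the cluster. Reads of both arms are in these sums, although only the 5p arms carry UUGGCA. Mir183 carries AUGGCA in these bases, while it shares bases 3 to 8 (UGGCAC) with Mir96. Among the other microRNA genes, seed sharing was looked up for the 916 of 1973 whose symbol had a mature sequence in the RefSeq table. The full seed of miR-96-5p was found in 1 further arm, miR-1271-5p of Gm24195 on chromosome 13, which had no read in either library. The seed of miR-96-3p was found in miR-3475-5p of Mir3475 on chromosome X, with 24 and 36 reads in replicates 1 and 2 and 6.95 ± 2.46 CPM. No other arm of the table carried the seed of an arm of Mir182 or Mir183.

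The cluster was then compared between the libraries, with log2 ratios of replicate 1 over replicate 2. The question was how far its level varied within the group. None of the 3 genes passed the exact binomial test with Benjamini-Hochberg adjustment over 407 genes with at least 10 reads. The test passed 0.983% of these 407 genes at an adjusted p under 0.05 with at least a 2-fold change, and 35.6% at the adjusted p alone. Its yardstick is the noise of counting in these particular libraries, and it says nothing of conditions. Mir182 had a log2 ratio of -0.019 with a counting interval of -0.046 to 0.0090 (adjusted p = 0.372). Mir183 had -0.047 with an interval of -0.092 to -0.0021 (unadjusted p = 0.0396, adjusted p = 0.1002). Mir96 had 0.015 with an interval of -0.050 to 0.079 (adjusted p = 0.833).

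Scaled by the library totals, these differences were small beside those of other genes, a comparison that was not repeated with other scalings. Among 275 genes with at least 100 reads the median size of the log2 ratio was 0.11, and 255 of the 275 had a larger one than Mir182, 222 a larger one than Mir183 and 258 a larger one than Mir96. Their direction depends on the scaling. With TMM scaling the log2 ratio of Mir182 was 0.043 (adjusted p = 0.00761) and that of Mir183 0.015 (adjusted p = 0.774), and with DESeq2 size factors they were 0.053 (adjusted p = 0.000660) and 0.025 (adjusted p = 0.501). Mir96 stayed positive, at 0.077 (adjusted p = 0.0581) and 0.086 (adjusted p = 0.0268). No direction between the libraries is therefore given for Mir182 or Mir183. Under each scaling all 3 genes lay within 0.1 of 0 on the log2 scale.

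**Figure D3:**
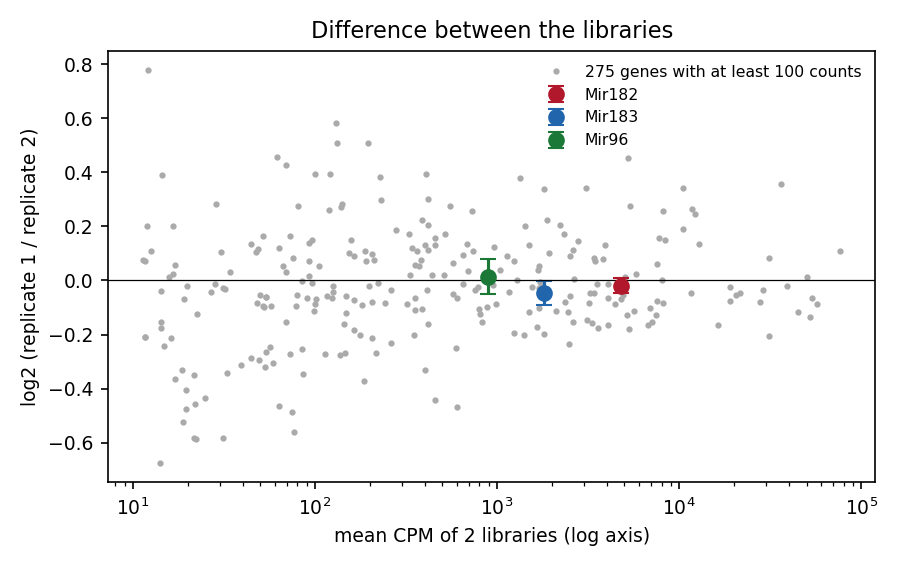
Log2 ratio of replicate 1 over replicate 2 (vertical axis) against mean CPM (log axis) for 275 genes with at least 100 reads, with the cluster genes in colour and whiskers for their 95% counting intervals. The cluster genes lie at -0.047, -0.019 and 0.015, near the middle of the spread.

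Neighbouring microRNA genes were next set side by side, since genes of a cluster can differ in level although they may share a transcript. A cluster was defined as 3 or more genes of the same strand, each with 10 or more reads and none over 10 kb from the next. There were 14. The highest and the lowest member differed 5.37-fold in the sensory cluster, the narrowest spread of the 14, whose median was 125-fold. That median rests on genes with few counted reads: it was 58.8-fold with at least 100 reads a gene and 14.8-fold among genes without a shared stretch. Next came the X-linked cluster from Mir532 to Mir500 at 6.09-fold and the cluster from Mir106b to Mir25 at 7.44-fold. The log2 library ratios of the sensory cluster spanned 0.062, also the narrowest of the 14, close to 0.074 for Mir23a to Mir24-2, 0.11 for Mir200b to Mir429 and 0.11 for Mir532 to Mir500. The median span was 0.28, or 0.20 with at least 100 reads a gene. Small clusters have fewer members to differ, and the 5 other clusters of 3 or 4 genes ran from 7.44-fold to 172-fold. The cluster also had the narrowest spread among the 11 clusters left when genes with a shared stretch were taken out, where the next was 5.46-fold. With gaps of at most 5 kb it came second of 13, behind the 3 genes from Mir362 to Mir500 at 1.43-fold. These ranks are a description, with no test.

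**Figure D4:**
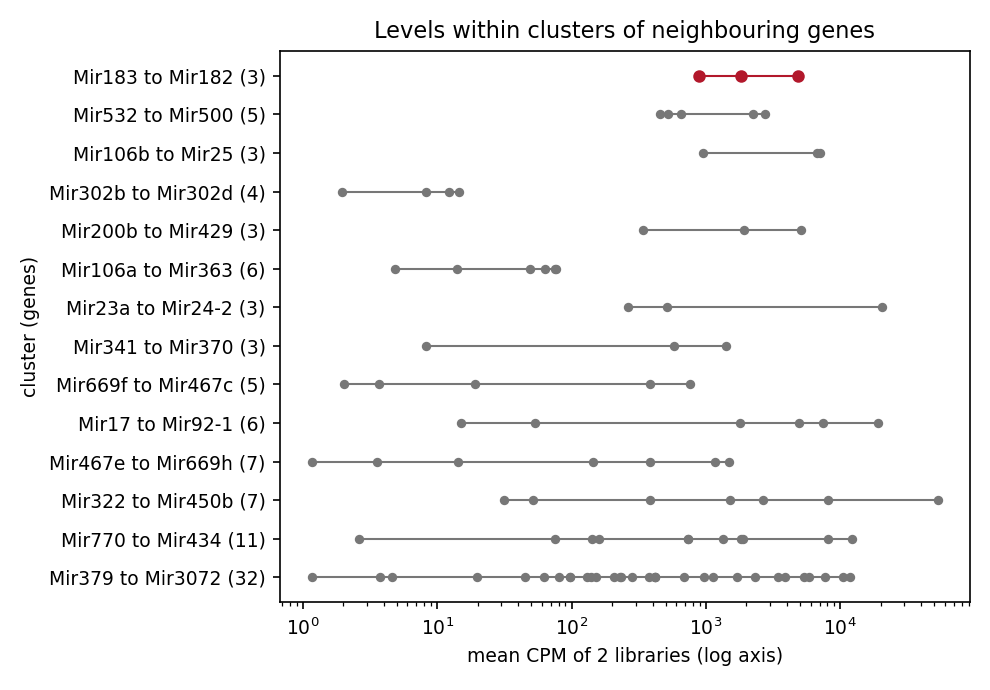
Mean CPM (log axis) of every gene in the 14 clusters of at least 3 neighbouring genes, sorted by the fold between highest and lowest member, with the number of genes after each name. The sensory cluster, at the top, spans 5.37-fold and lies between about 895 and 4804 CPM.

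The most similar clusters in layout were 2 others of 3 genes on a minus strand, Mir200b to Mir429 of epithelia and Mir106b to Mir25 of proliferating cells. The cluster sum was 1.00 and 1.05 times that of Mir200b, Mir200a and Mir429 in replicates 1 and 2, with 7459 and 7572 CPM against 7445 and 7229 CPM. The level of the cluster was thus close to that of the epithelial one in both libraries. Mean levels gave Mir182 63.9% and Mir96 11.9% of the sensory cluster, against 69.0% for Mir429 and 4.65% for Mir200a, the highest and lowest of the epithelial one. Against Mir106b, Mir93 and Mir25 the sensory cluster had 0.533 and 0.488 times the sum, 7459 and 7572 CPM against 14002 and 15524 CPM. In the binomial test between the libraries, 35.6% of the genes tested passed at the adjusted p alone. Of the sensory genes 0 of 3 passed, beside 1 of 3 epithelial genes (Mir200b, log2 ratio 0.10, adjusted p = 1.91e-05). In the Mir106b cluster 2 of 3 passed (Mir106b at -0.16 and Mir93 at -0.15). With TMM scaling 1 of the 3 sensory genes passed (Mir182), and with DESeq2 size factors 2 did (Mir182 and Mir96). Of the 407 genes tested, 131 passed at the adjusted p alone with TMM scaling and 138 with DESeq2 size factors. Calls of the other 2 clusters under these scalings are not given. Whether the clusters differ in this was not tested.

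The cluster was then set beside lists of microRNAs named after tissues. A list name does not show that its tissue was present, since genes such as Mir204 and Mir375 are made in several places. The cluster sum was 7.81 and 7.87 times that of 22 neural genes in replicates 1 and 2, a mean of 7.84 ± 0.0456 (SD, n = 2), with 7459 and 7572 CPM against 956 and 962 CPM. Mir128-1, a microRNA of neurons, averaged 191 ± 6.84 CPM, and Mir132, which responds to neuronal activity, 182 ± 8.14 CPM. The neuronal genes Mir124a-1, Mir124a-2, Mir124a-3 and Mir9-2 had no read, and Mir9-3 had 2 reads in replicate 1 and none in replicate 2. Since 17 of the 22 neural genes have a stretch in common with another gene and reads with several alignments were not counted, the neural sum is a lower limit, and absence cannot be read from these zeros.

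Of the eye list, Mir204, a microRNA of retinal pigment epithelium, lens and choroid plexus, averaged 350 ± 34.8 CPM, Mir211 8.71 ± 0.653 CPM and Mir184 4.56 ± 0.304 CPM. The sensory cluster was 22.02 and 19.49 times their sum in replicates 1 and 2. Mir375, a microRNA of neuroendocrine cells that Merkel cells of the skin also make, had 387 and 526 CPM, and the cluster sum was 19.3 and 14.4 times as high. None of these 4 genes has a stretch in common with another gene.

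The lists of surface epithelium, cartilage and endothelium were higher than the cluster in both libraries. The cluster reached 0.116 and 0.140 times the sum of the 7 surface epithelium genes in replicates 1 and 2 (7459 and 7572 CPM against 64405 and 53931 CPM; led by Mir203 and Mir205). It reached 0.125 and 0.120 times the sum of the cartilage genes Mir140 and Mir455. Against the endothelial gene Mir126a its ratio was 0.393 in both libraries. It was 1.14 and 1.58 times the sum of 8 skeletal muscle genes, led by Mir206 and Mir499, of which Mir1a-1, Mir133a-1 and Mir133a-2 have a stretch in common with another gene and had 1 or 2 reads in each library. The muscle sum is thus a lower limit, and its order against the cluster is not settled. It was 13.6 and 18.1 times the sum of 3 erythroid genes (Mir451a, Mir144 and Mir486) in replicates 1 and 2, and 12.5 and 11.6 times that of the 3 leukocyte genes counted on their own strand (led by Mir223 and Mir155). Mir142b had 3234 and 2490 reads on its opposite strand, where the blood cell microRNA Mir142 is known to lie, and none on its own. With these added to the leukocyte sum the ratio was 5.74 and 6.03.

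Scaled by the library totals, most tissue lists differed by more between the libraries than the cluster did. The log2 ratio of replicate 1 over replicate 2 was -0.022 for the cluster sum, against 0.26 for surface epithelium, 0.46 for skeletal muscle, 0.39 for the erythroid list, -0.44 for Mir375 and -0.20 for the eye list. The leukocyte and cartilage lists also lay farther from 0, at -0.13 and -0.085, while the neural list was at -0.0097 and the endothelial gene at -0.023. TMM totals or DESeq2 size factors shift all these ratios alike. The lists were not compared under them, so the order of the smaller ratios is not settled. With 2 libraries no relation between the cluster and a tissue can be computed, and which cells of the limb made its reads was not tested.

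**Figure D5:**
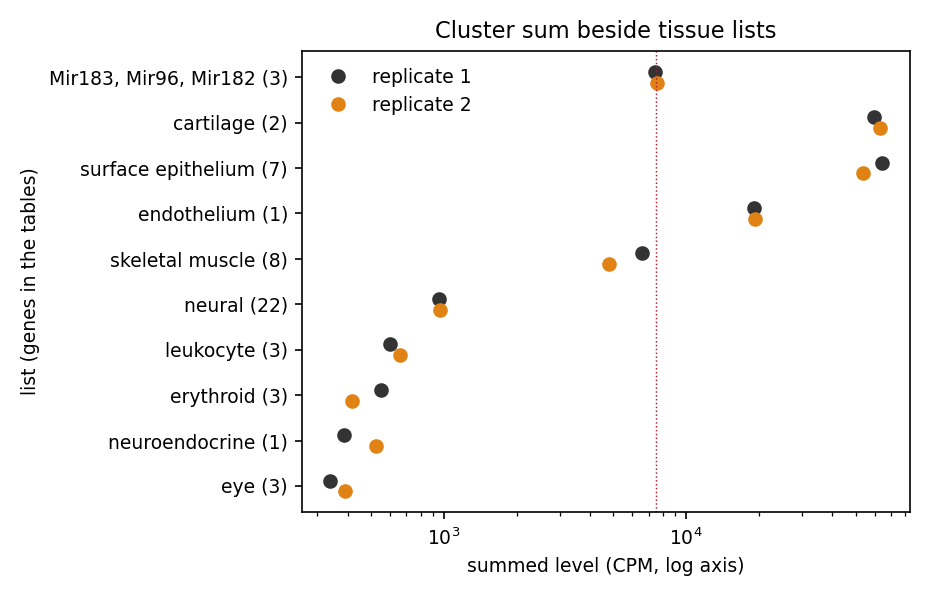
Summed CPM (log axis) of the cluster and of 9 tissue lists in replicates 1 and 2, with the number of genes in the tables after each name and a dotted line at the mean of the cluster. The cluster lies below cartilage, surface epithelium and endothelium and above the counted reads of the other 6 lists in both libraries, of which the skeletal muscle and neural sums are lower limits.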

How the data were processed

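Per the labels, the 2 samples were limb tissue of mouse embryos read as small RNA libraries. The deposited tables hold unnormalised counts from the authors, the whole number of reads at each gene. Per the deposited read-me texts, the build was mm10 and the annotation GENCODE M4. The aligner and counting program are not given in the sources used here. Of 3 count columns without a header, the second was taken as the gene's own strand, judged from the values. Replicates 1 and 2 held 9001596 and 8387546 reads, of which 51.2% and 49.4% were own-strand counts. Rows that name no gene were left out: reads with several alignments (31.8% and 32.6%), unmapped reads (12.8% and 13.7%) and reads on no gene's own strand (4.19% and 4.31%).

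Symbols and positions came from GENCODE M21 on GRCm38, the same build, which matched 1894 of 1973 identifiers, and sequences from RefSeq. Each gene's reads in the libraries were compared by an exact binomial test (two-sided, expected share from the library totals), adjusted by Benjamini-Hochberg over genes with at least 10 reads. Log2 ratios used 0.5 as prior count. No quasi-likelihood test was fitted, since nothing remains to estimate spread from with 1 library a side. The binomial test was also run on simulated Poisson counts. These hold counting noise only, so they cannot show how the test behaves with further spread between libraries. Levels carry mean and SD of 2 libraries, and p-values measure only these samples. Alternatives were TMM totals (edgeR 4.0.16), DESeq2 1.42.0 size factors, other totals, filters, gaps and leaving out a replicate. Genes without a shared stretch and the reads opposite Mir142b were alternatives chosen after seeing the data. Besides the 3 members, named genes were the 3 nearest in level to each, the 2 highest of each list, genes with a shared seed, and the nearest counted genes. Others (Mir184, Mir486, Mir142b, the genes at 0 and those of neighbouring clusters) were named after their values were seen. The members and lists were chosen with earlier results of these data known. Python 3.11.15, scipy 1.17.1 and R 4.3.3 were used.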

Additional observations from a re-analysis of the deposited data

How the results depend on the processing

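With a total that also held multiply aligned reads, the levels were 2928 CPM for Mir182, 1107 CPM for Mir183, 545 CPM for Mir96 and 4580 CPM for the sum. With reads of either strand in counts and total they were 4653, 1760, 867 and 7280 CPM. Per 100 bases of gene the ratios were 2.47 (Mir182 over Mir183), 7.59 (Mir182 over Mir96) and 3.08 (Mir183 over Mir96). The ratio to the neural list was 7.90 with its detected genes alone. Between the libraries the log2 ratio changed sign for Mir182 (0.043 with TMM, 0.053 with DESeq2 size factors) and for Mir183 (0.015 and 0.025). Mir182 passed the adjusted p of the binomial test with both scalings, and Mir96 (0.086) with DESeq2 size factors. The changes arise because these scalings shift all genes alike. Genes called 2-fold fell to 0, against 4, with at least 100 reads, a filter that leaves out genes with fewer reads. They also fell to 0 under the exact test of edgeR with its coefficient of variation set to 0.1. That test called 0 genes at the adjusted p alone, against 145, and 16 at an unadjusted p under 0.05. The cluster ranked 2 by spread with gaps of at most 5 kb. With the opposite-strand reads at Mir142b added, an alternative chosen after seeing the data, the ratio to the leukocyte list was 5.88. Under the remaining settings 3 or 4 genes were called 2-fold and 131 to 155 at the adjusted p alone, and 56 other values kept their direction and side of the threshold or moved by less than 1 SD. Leaving out a replicate shows nothing about stability, since with 2 libraries it always moves a mean by less than 1 SD. No paired analysis was possible because there is 1 group. Depth limits genes near 3 reads, not the members.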
